A study of Mus musculus with 15 samples.

Results

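The genes described here encode core splicing factors and heterogeneous nuclear ribonucleoproteins (hnRNPs). They were taken by gene symbol alone, as every gene whose symbol opens with Srsf, Sf3a, Sf3b, Prpf or Lsm followed by a number, or with Hnrnp, Snrp or U2af. This gave 74 of the 18194 genes with a probe set annotated to a single symbol, of which 72 were bright enough to be tested. Where a gene had several probe sets, the brightest over all arrays was used. The 74 genes fall into 19 hnRNPs, 12 Prpf genes, 12 Lsm genes, 10 SR proteins, 9 SF3a and SF3b subunits, 9 Sm and snRNP proteins and 3 U2af genes.

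Splicing removes introns from pre-mRNA on the spliceosome, which is built from small nuclear ribonucleoproteins (snRNPs). Sm and Lsm proteins form rings around the small nuclear RNAs. SF3a and SF3b hold the U2 snRNP at the branch point, and U2AF marks the 3′ splice site. Several Prpf proteins assemble and drive the U4/U6.U5 tri-snRNP, while others, such as Prpf39 and Prpf40b, are U1-associated. SR proteins bind exons and mostly favour their inclusion, whereas many hnRNPs bind introns or exons and can block it. Resting lymphocytes are small cells with little RNA synthesis, and on activation they enlarge and change the splicing of many transcripts, among them Ptprc (CD45).

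Affymetrix mouse arrays were hybridised with RNA from spleen B and T lymphocytes of mice on the mixed strain background B6x129. The groups, of 3 arrays each, were B cells cultured for 4 h with 25 ug/ml lipopolysaccharide (LPS, a bacterial activator of Toll-like receptor 4), B cells at 0 h, and T cells at 0 h and after 4 h and 14 h with 7.5 ug/ml concanavalin A (ConA, a lectin that activates T cells). No gene was targeted in any group. Every cultured group received LPS or ConA, so culture and activator cannot be told apart. The labels do not say whether the 3 samples of a group came from separate animals or cultures, so the p-values measure only the spread between these samples, which may be technical. The title of the series asks whether the transcription factor Myc amplifies expression in general.

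All values are log2 signals. A difference of 1 is therefore 2-fold. A gene was called higher or lower when its adjusted p in a limma fit over all 15 arrays was under 0.05. Because the same RNA mass was labelled for each sample and the arrays were put on a common scale, the amount of RNA per cell cannot be read from these values, and fewer cells of a type cannot be told apart from less RNA per cell.

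The labelled cell types were checked against marker genes. All 9 B cell markers were at or above a group mean of 5 in both B groups, all 11 T cell markers were so in all T groups, and 9 of the 11 T cell markers, among them Cd3d and Cd3g, were below 5 in both B groups. Of the 9 B cell markers, 5 were below 5 in T cells at 0 h, 4 at 4 h and 5 at 14 h. At these times Cd74 read 8.49, 9.14 and 8.87, Cd79b 7.65, 7.11 and 6.90, and Ms4a1 6.08, 7.03 and 6.60. At 4 h against 0 h in T cells, 4 of the 9 were called higher and 1 lower. Xist and the Y-linked genes did not match across groups. Xist, a transcript made in female cells, read 2.24 to 2.42 in B cells with LPS and at least 11.98 in B cells at 0 h. In T cells Xist lay at 12.15 to 12.31 at 0 h, 2.38 to 4.33 at 4 h and 11.70 to 11.86 at 14 h, whereas the Y-linked gene Eif2s3y was at or above 10.02 on every array. The sex of the source animals and the 4 h cultures therefore cannot be told apart, and the part of sex in the results was not tested. Among the splicing genes only Hnrnph2 lies on the X chromosome. The summed level of 10 erythroid markers was 12.29 to 12.37 with LPS against 13.61 to 13.68 in B cells at 0 h, and it was 12.65 to 12.70, 9.34 to 9.35 and 8.28 to 8.46 in T cells at 0, 4 and 14 h. Of the 9 erythroid markers tested, 9 fell with LPS and 8 fell in T cells at each time, and Hba-a1 was below 5 in every group. The monocyte, macrophage and neutrophil markers summed to 11.55 to 11.77 with LPS against 12.53 to 12.64 in B cells at 0 h. Mpeg1 carried the LPS sum (11.48 against 11.15). Of the 6 such markers tested, 5 fell at least 2-fold, and the median difference was -3.61. Among those that fell were Csf1r (2.37 against 9.33), Lyz2 (6.14 against 10.54) and Adgre1 (3.41 against 7.40). The T cell markers summed to 7.30 to 7.47 with LPS against 10.96 to 11.06 at 0 h, a gap carried by Cd2 (5.72 against 10.93), since Cd3d (2.93 against 2.82) and Cd3e (5.31 against 5.04) were not lower. Of the B cell markers themselves 8 of 9 fell with LPS, and they summed to 15.83 to 15.89 against 17.03 to 17.08. With LPS against 0 h the plasma cell markers summed to 11.24 to 11.32 against 13.43 to 13.47, the dendritic cell markers to 9.65 to 10.02 against 7.0 to 7.22, and the NK cell markers to 4.92 to 5.34 against 7.01 to 7.23. Of the dendritic cell markers, Zbtb46 (9.49 against 4.86) and Flt3 (7.29 against 4.99) were higher, and Itgax (2.34 against 6.08) was lower. In T cells the monocyte, macrophage and neutrophil (myeloid) markers summed to 8.92 to 9.31 at 0 h. They summed to 10.62 to 11.08 at 4 h and 6.91 to 7.28 at 14 h. Csf1r, Cd14, Itgam and Adgre1 were below 5 at all 3 times. S100a8 read 7.48, 10.19 and 4.67 at 0, 4 and 14 h, and S100a9 6.20, 8.65 and 2.65. Lyz2 read 7.16, 6.18 and 5.68, and Mpeg1 6.98, 6.58 and 4.96. The NK cell markers summed to 12.02 to 12.05, 11.17 to 11.31 and 10.96 to 10.98 in T cells at these times. The part of these other cells in the results was not tested. The 3′ signal of the dap spike-in RNA exceeded its 5′ signal by 0.90 to 1.44 on the B arrays. On T 0 h replicate 2 and T ConA 4 h replicate 1 the excess was 4.59 and 5.94. It was 1.82 to 2.67 on the other T arrays. This measure thus differed between the cell types, and its part in comparisons of B with T cells was not tested. Counts over all splicing genes without T 0 h replicate 2 and T ConA 4 h replicate 1 are given beside those they touch. The 3′ signal of actin exceeded its 5′ signal by 0.39 to 0.49 in T cells at 0 h, 0.56 to 0.91 at 4 h and 0.62 to 0.64 at 14 h, so this measure of RNA quality moved with ConA, and its part in the T cell results was not tested.

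Because the series is about Myc, the promoters of the splicing genes were searched for CACGTG, the E-box bound by Myc with its partner Max. Of the 74 genes, 64 had a promoter window in RefSeq (GRCm38.p6), running from 250 bases before the start site to 50 after it. Both strands were read, and CACGTG is its own reverse complement. The 7 genes that hold the motif follow as 30-base stretches, 5′ to 3′ on the strand of the gene, with the E-box in capitals.
Hnrnpd: gcgctccggagcCACGTGaccgggacgcgc
Hnrnpf: cgagcgggcgctCACGTGgcccgaggcgcc
Hnrnph2: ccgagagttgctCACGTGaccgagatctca
Hnrnpm: gtcgttcggggtCACGTGagcgcgcaggcg
Prpf3: gccttccgtagtCACGTGccgtagggaccg
Prpf39: ggttgcgcgcgtCACGTGaccgctgcgcct
Prpf40b: caggattctgcgCACGTGggggcggggcct
The stretches lie at chr5:99978953-99978982 (minus strand) for Hnrnpd, chr6:117907713-117907742 (plus) for Hnrnpf, chrX:134601182-134601211 (plus) for Hnrnph2 and chr17:33685428-33685457 (minus) for Hnrnpm. Those of the Prpf genes lie at chr3:95855856-95855885 (minus) for Prpf3, chr12:65036279-65036308 (plus) for Prpf39 and chr15:99295038-99295067 (plus) for Prpf40b. Counted from the start site as 1, the E-box opens at -32 in Hnrnpd, -79 in Hnrnpf, -43 in Prpf39 and -191 in Prpf40b, all upstream of the start site of their window, and at 16 in Hnrnph2, 14 in Hnrnpm and 13 in Prpf3, just past that start site. The annotated genes Hnrnpd and Hnrnpf open before these start sites, so their motifs lie within the gene, and Prpf3 has a further start site downstream of its motif.

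The E-box was about as frequent among the splicing genes as among the tested genes. It was in the windows of 7 of 64 genes (10.9%), against 944 of the 7431 tested genes with a window (12.7%) and 8.09% of all genes in the promoter table. The ETS core CCGGAAG was in 29.7% of the splicing genes' windows against 23.3% of tested genes. A match is a description of the letters and not a binding site.

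Of all genes tested, 37.6% were higher and 42.3% lower in B cells with LPS. Among the 55 tested splicing genes with a window but no E-box, 37 were higher and 8 lower, at a median difference of 0.55. Of the 7 splicing genes with an E-box, 6 rose and 0 fell, at a median of 0.61. The rises ran over Prpf40b at 1.59, Prpf3 at 1.16, Hnrnpm at 0.66, Hnrnpd at 0.61, Hnrnph2 at 0.21 and Hnrnpf at 0.20, while Prpf39 differed by -0.06 and was not called. In T cells at 4 h the medians were 0.38 with and 0.25 without the E-box, and at 14 h they were 0.31 and 0.29. Genes with and without these letters thus had similar medians, and the difference was not tested.

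Most splicing genes rose on activation. In B cells with LPS, 50 of 72 rose (69.4%), 10 fell and 12 were not called, at a median difference of 0.52. Of all 9045 genes tested, 79.9% were called in either direction, with 37.6% higher and 42.3% lower and a median of -0.05. In T cells with ConA, 45 rose and 8 fell at 4 h, where 65.9% of all genes were called, 33.4% higher and 32.5% lower. At 14 h 46 rose and 14 fell, where 68.4% of all genes were called, 36.6% higher and 31.9% lower. The median splicing gene differed by 0.29 at 4 h and 0.38 at 14 h, against 0.00 and 0.03 for all genes. Without the 2 arrays with high spike-in ratios the counts were 44 higher and 7 lower at 4 h and 46 higher and 16 lower at 14 h. A rise of at least 2-fold was made by 16 splicing genes in B cells, where 18.7% of all genes did so, by 5 in T cells at 4 h (9.34% of all genes) and by 6 at 14 h (10.5% of all genes). A fall of at least 2-fold was made by 3 in B cells, where 24.1% of all genes did so, by 0 in T cells at 4 h (11.5% of all genes) and by 1 at 14 h (11% of all genes).

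Both T cell comparisons share the 0 h arrays, so they are no independent repeats. Srsf12 was too dim to test, with 5.23, 4.96 and 4.55 in T cells at 0 h and 2.24 to 2.39 on the other arrays, and Snrpn lay at the floor of 2.24 on every array.

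**Figure D1:**
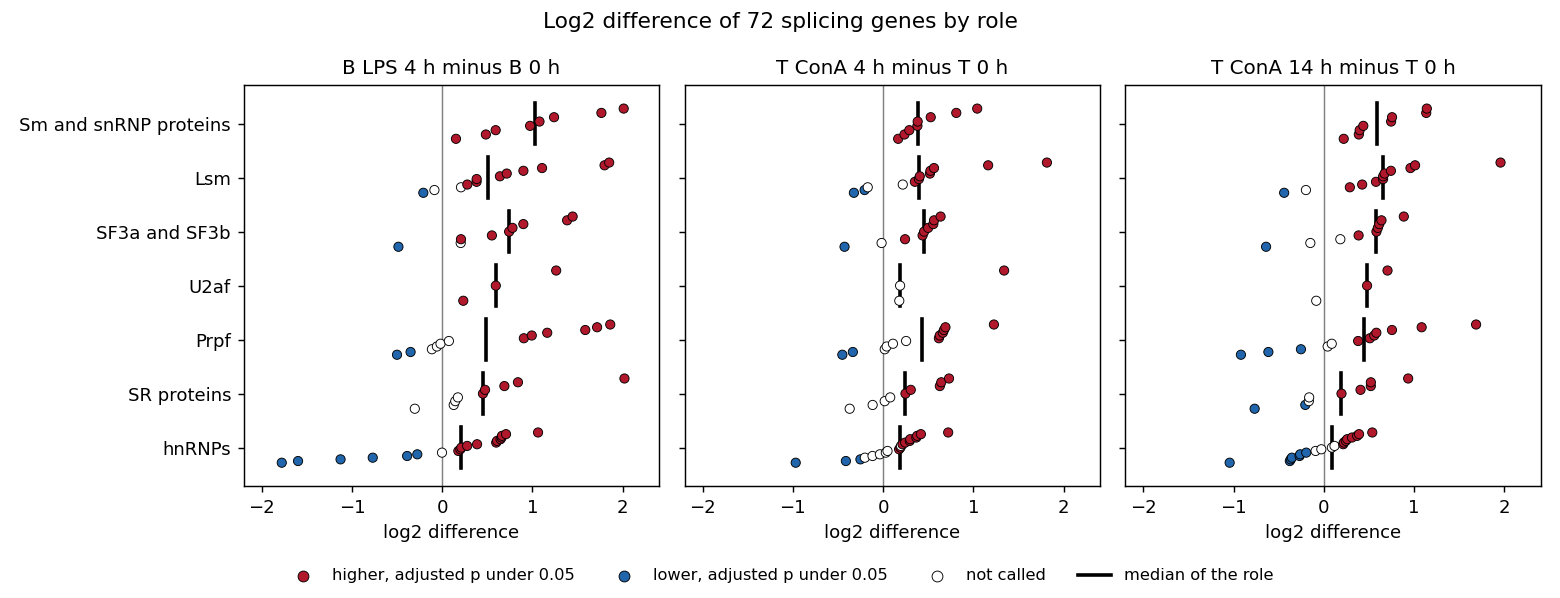
Log2 difference from 0 h (x axis) of the 72 tested splicing genes, by role (rows), in B cells with LPS for 4 h and in T cells with ConA for 4 h and 14 h. Each point is a gene, red where called higher, blue where called lower and white where not called, and the black bar is the median of the role, which in B cells is highest for the Sm and snRNP proteins at 1.03 and lowest for the hnRNPs at 0.21.

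The Sm and snRNP proteins all moved one way. All 8 tested rose in B cells with LPS, and all 8 rose in T cells at both times. Their medians were 1.03 in B cells and 0.38 and 0.59 in T cells at 4 h and 14 h. Of all genes, 37.6% were higher with LPS, and 33.4% and 36.6% with ConA at 4 h and 14 h. When the 2 arrays with high spike-in ratios were left out, 7 of the 8 were called higher with ConA for 4 h. With ConA for 14 h all 8 still were, and 0 were lower in either comparison. Snrpa1 encodes a protein of the U2 snRNP. Its signal was 11.77, 11.81 and 11.80 in B cells with LPS, against 9.85, 9.80 and 9.69 in B cells at 0 h. In T cells Snrpa1 read 10.40, 10.56 and 10.32 at 0 h, 11.64, 11.38 and 11.39 at 4 h and 11.56, 11.66 and 11.46 at 14 h. Every activated array lay above every 0 h array of its cell type. The Snrpa1 difference was 2.01 ± 0.09 in B cells (SE; 4.03-fold, adjusted p = 4.21e-11) and 1.04 ± 0.09 (adjusted p = 1.35e-07) and 1.13 ± 0.09 (adjusted p = 5.97e-08) in T cells at 4 h and 14 h. Its other probe sets gave 2.14 and 2.21 in B cells.

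Snrpf, a subunit of the Sm ring shared by the U1, U2, U4 and U5 snRNPs, read 11.71, 11.78 and 11.78 with LPS against 10.01, 10.08 and 9.88 in B cells at 0 h. In T cells Snrpf read 11.65, 11.71 and 11.39 at 0 h, 12.55, 12.28 and 12.36 at 4 h and 12.71, 12.88 and 12.59 at 14 h. The B cells with LPS thus reached about the level of resting T cells. The differences were 1.76 ± 0.10 in B cells (SE; 3.40-fold, adjusted p = 1.15e-09), 0.81 ± 0.10 in T cells at 4 h (adjusted p = 9.9e-06) and 1.14 ± 0.10 at 14 h (adjusted p = 3.18e-07). Among the other Sm ring genes, Snrpd3 rose by 1.24 in B cells and by 0.38 and 0.44 in T cells at 4 h and 14 h, and Snrpb by 0.97, 0.29 and 0.40. Snrpe and Snrpg moved least, at 0.48 and 0.15 in B cells. Snrpc, which helps the U1 snRNP bind the 5′ splice site, rose by 1.08 in B cells and by 0.53 and 0.75 in T cells, and Snrpb2, another U2 snRNP protein, by 0.59, 0.38 and 0.74.

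Most Lsm genes rose, and Lsm8, Lsm14a and Lsm14b each fell in 1 cell type. In B cells 9 of 12 were higher and 1 lower, in T cells 8 were higher and 2 lower at 4 h, and 10 were higher and 1 lower at 14 h. The higher shares were 75%, 66.7% and 83.3%, against 37.6%, 33.4% and 36.6% of all genes. Lsm2, a member of the ring on the 3′ end of U6 RNA and of the cytoplasmic ring that promotes mRNA decay, read 9.94, 9.81 and 9.85 with LPS against 7.90, 8.07 and 8.09 in B cells at 0 h. In T cells Lsm2 read 7.92, 7.92 and 7.74 at 0 h, 9.68, 8.70 and 8.70 at 4 h and 8.70, 9.01 and 8.90 at 14 h. One 4 h array, T ConA replicate 1, which also had the highest spike-in ratio, stood about a log2 unit above the other two. Lsm2 differed by 1.85 ± 0.20 in B cells (SE; 3.61-fold, adjusted p = 9.3e-07), by 1.16 ± 0.20 at 4 h in T cells (adjusted p = 0.000156; 0.84 without T ConA 4 h replicate 1) and by 1.01 ± 0.20 at 14 h (adjusted p = 0.000473).

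Lsm12, a protein with an Lsm domain outside the snRNP rings, was dim at 0 h, with group means of 4.68 in B cells and 4.93 in T cells that lie below the level of 5. It read 6.47, 6.48 and 6.50 with LPS against 4.25, 4.91 and 4.88 in B cells at 0 h. In T cells Lsm12 read 4.88, 4.84 and 5.07 at 0 h, 6.48, 6.81 and 6.95 at 4 h and 7.03, 6.81 and 6.82 at 14 h. Activated and 0 h arrays did not overlap in either cell type. The differences were 1.80 ± 0.16 in B cells (SE; adjusted p = 1.22e-07), 1.82 ± 0.16 in T cells at 4 h (adjusted p = 2.62e-07) and 1.96 ± 0.16 at 14 h (3.88-fold, adjusted p = 1.21e-07). A second Lsm12 probe set gave 1.49 and 1.67 in T cells at 4 h and 14 h but 0.32, not called, in B cells, where the mean over the probe sets was higher by 1.06.

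The other genes of the U6 ring rose by less. Lsm7 rose by 1.11 in B cells and by 0.52 and 0.66 in T cells at 4 h and 14 h, Lsm6 by 0.38, 0.56 and 0.96, Lsm3 by 0.38, 0.40 and 0.74 and Lsm4 by 0.28, 0.52 and 0.42. Lsm1, which replaces Lsm8 in the decay ring, rose by 0.90, 0.41 and 0.58. Lsm10 and Lsm11 belong to the U7 snRNP, which cuts histone pre-mRNA, and rose by 0.64 and 0.72 in B cells. In T cells they differed by -0.17 and 0.22 at 4 h, neither called, and were higher by 0.29 and 0.67 at 14 h.

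Lsm8, the subunit that marks the nuclear U6 ring, read 9.88, 9.97 and 9.83 with LPS against 10.09, 10.04 and 10.17 in B cells at 0 h. In T cells Lsm8 read 10.47, 10.74 and 10.49 at 0 h, 11.01, 10.86 and 10.89 at 4 h and 11.31, 11.18 and 11.18 at 14 h. It was lower in B cells by a small amount, -0.21 ± 0.08 (SE; adjusted p = 0.0321), and higher in T cells by 0.35 ± 0.08 at 4 h (adjusted p = 0.00194) and 0.66 at 14 h. The B cell call was lost without B 0 h replicate 1 (-0.22) or 3 (-0.17), or LPS replicate 1 (-0.20) or 3 (-0.18), and a second Lsm8 probe set was higher by 1.22 there. Lsm14a, a P-body protein, was lower in T cells by -0.20 at 4 h (adjusted p = 0.0153; the call was lost without T 0 h replicate 1, at -0.17) and by -0.44 ± 0.07 at 14 h. Lsm14b was lower by -0.32 ± 0.11 at 4 h (SE; adjusted p = 0.0222), a call lost without T 0 h replicate 2 (-0.25) or 3 (-0.30) or T ConA 4 h replicate 2 or 3 (-0.28 each).

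Most SF3a and SF3b subunits rose, and Sf3b1 fell. In B cells 7 of 9 were higher and 1 lower, in T cells 7 and 1 at 4 h and 6 and 1 at 14 h, with medians of 0.74, 0.45 and 0.58. The higher shares were 77.8%, 77.8% and 66.7%, against 37.6%, 33.4% and 36.6% of all genes. Sf3b3, the scaffold of SF3b, read 11.98, 12 and 12.06 with LPS against 10.47, 10.62 and 10.62 in B cells at 0 h, a difference of 1.45 ± 0.07 (SE; 2.72-fold, adjusted p = 1.14e-10). Sf3a3 read 10.36, 10.47 and 10.37 with LPS against 9.05, 8.97 and 9.03, a difference of 1.38 ± 0.07 (SE; adjusted p = 2.54e-10), and was higher in T cells by 0.64 ± 0.07 and 0.88 ± 0.07 at 4 h and 14 h. The 4 h call of Sf3a3 was lost with the mean over its probe sets (0.48, adjusted p = 0.0719). Sf3b3 and Sf3a3 both separated the LPS from the 0 h arrays of B cells completely. Sf3b3 rose by 0.56 and 0.58 in T cells, Sf3a1 by 0.50 and 0.64, Sf3b4 by 0.56 and 0.38 and Sf3b6 by 0.44 and 0.61.

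Sf3b1 encodes the SF3b subunit that clamps the branch point helix. It read 12.51, 12.24 and 12.30 with LPS against 12.79, 12.98 and 12.74 in B cells at 0 h. In T cells Sf3b1 read 13.31, 13.25 and 13.28 at 0 h, 12.86, 12.69 and 13.00 at 4 h and 12.56, 12.80 and 12.54 at 14 h. All activated arrays lay below the 0 h arrays of their cell type. Sf3b1 fell by 0.49 ± 0.10 in B cells (SE; adjusted p = 0.000617), by 0.43 ± 0.10 in T cells at 4 h (adjusted p = 0.00233) and by 0.64 ± 0.10 at 14 h (adjusted p = 8.16e-05). A second Sf3b1 probe set went the other way in T cells at 4 h, by 0.55. Sf3b2, its partner at the branch point, differed by 0.20, -0.02 and -0.15 in the same comparisons and was not called.

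U2af1, the small U2AF subunit that reads the AG at the 3′ splice site, was the member with the largest 4 h rise in T cells after Lsm12. It read 12.47, 12.53 and 12.50 with LPS against 11.21, 11.30 and 11.20 in B cells at 0 h. In T cells U2af1 read 10.62, 10.70 and 10.85 at 0 h, 12.14, 12.09 and 11.97 at 4 h and 11.53, 11.30 and 11.45 at 14 h. The 14 h arrays lay between those at 0 h and 4 h without overlap. The differences from 0 h were 1.26 ± 0.08 in B cells (SE; adjusted p = 2.73e-09), 1.34 ± 0.08 in T cells at 4 h (2.53-fold, adjusted p = 4.39e-09) and 0.70 ± 0.08 at 14 h (adjusted p = 2.98e-06). U2af2, the large subunit that binds the polypyrimidine tract, rose by 0.23 ± 0.09 in B cells (SE; adjusted p = 0.0345) and differed by 0.19 (adjusted p = 0.0936) and -0.09 in T cells. U2af1l4, a paralogue of the small subunit, was higher by 0.59 ± 0.11 in B cells and, at 14 h, by 0.48 ± 0.11 in T cells.

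**Figure D2:**
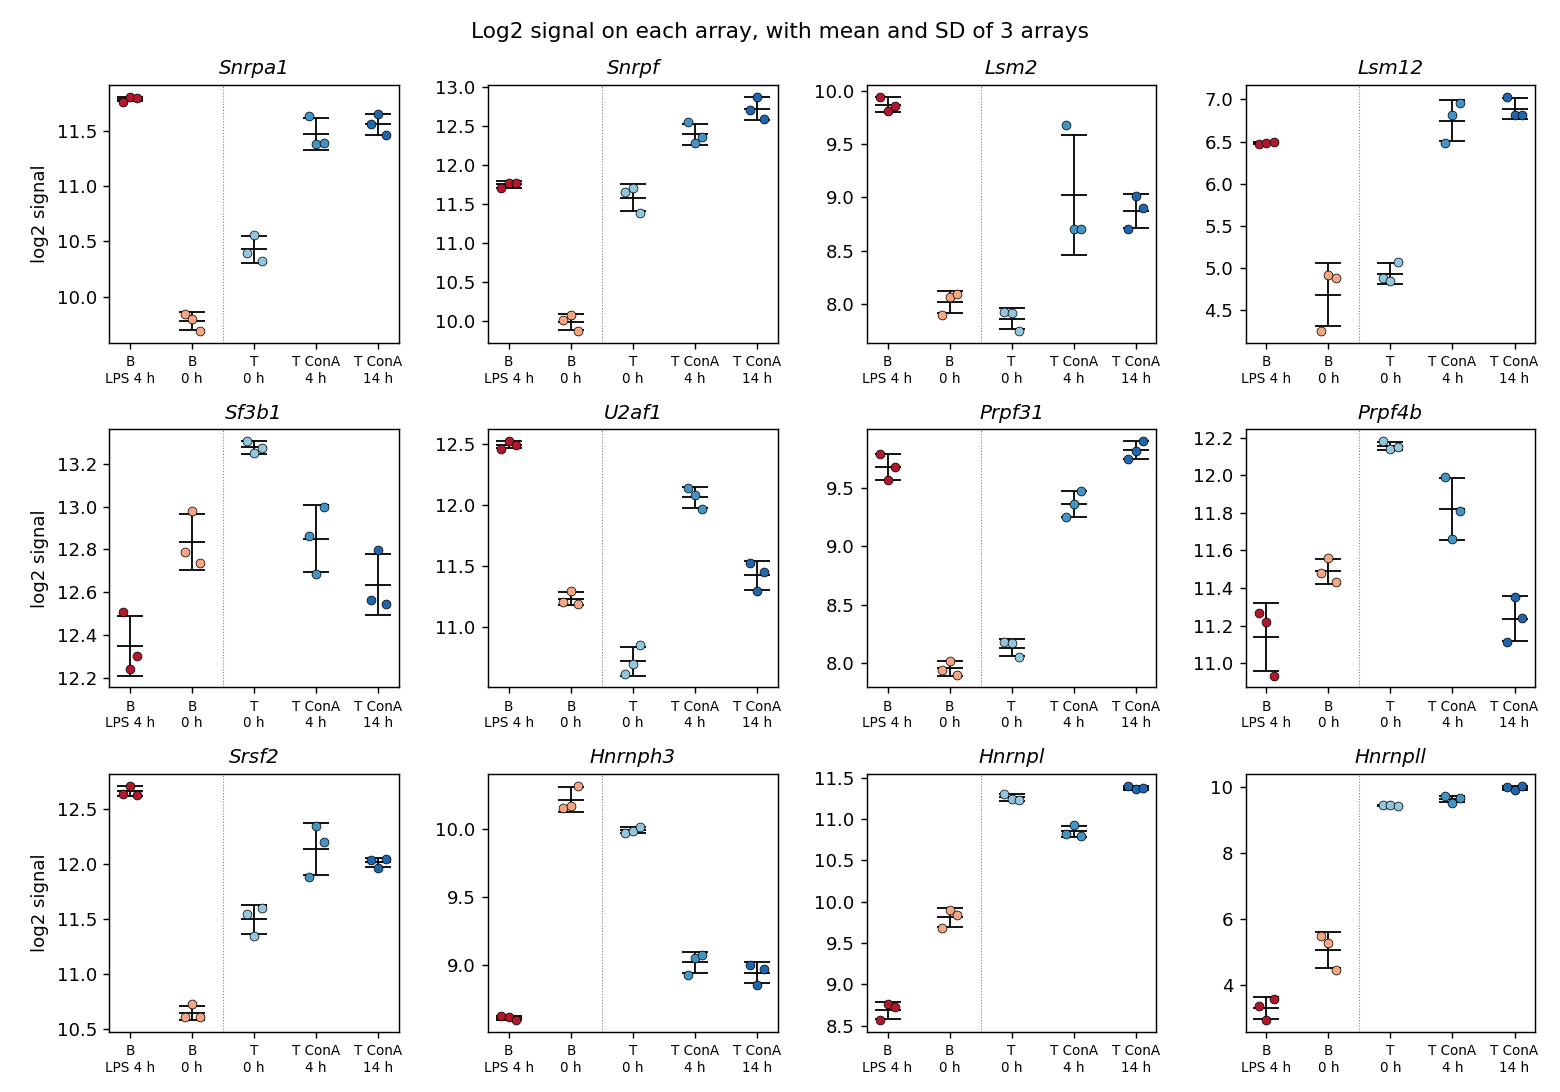
Log2 signal (y axis) on each array for 12 splicing genes, in B cells with LPS for 4 h, B cells at 0 h, and T cells at 0 h and with ConA for 4 h and 14 h (x axis). Points are arrays and bars are the mean ± SD of 3 arrays; each panel has its own y axis. U2af1 in T cells stands at 10.62 to 10.85 at 0 h, 11.97 to 12.14 at 4 h and 11.30 to 11.53 at 14 h.

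Prpf genes split into a larger group that rose and a smaller one that fell. In B cells 6 of 12 were higher and 2 lower, in T cells 6 and 2 at 4 h and 7 and 3 at 14 h. The higher shares were 50%, 50% and 58.3%, against 37.6%, 33.4% and 36.6% of all genes. The lower shares were 16.7%, 16.7% and 25%, against 42.3%, 32.5% and 31.9%. The genes of the U4/U6 snRNP rose together. Prpf31, which bridges U4/U6 and U5 in the tri-snRNP, read 9.78, 9.56 and 9.67 with LPS against 7.94, 8.02 and 7.90 in B cells at 0 h. In T cells Prpf31 read 8.18, 8.17 and 8.05 at 0 h, 9.25, 9.36 and 9.47 at 4 h and 9.75, 9.82 and 9.90 at 14 h. The groups did not overlap, in B cells or between the 3 times in T cells. Prpf31 was higher by 1.72 ± 0.08 in B cells (SE; 3.29-fold, adjusted p = 9.04e-11) and by 1.23 ± 0.08 (adjusted p = 1e-08) and 1.69 ± 0.08 (adjusted p = 4.84e-10) in T cells.

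Prpf4, a U4/U6 protein, read 8.07, 8.04 and 8.47 with LPS against 6.15, 6.28 and 6.57 in B cells at 0 h. In T cells Prpf4 read 7.02, 6.88 and 7.23 at 0 h, 7.50, 7.74 and 7.91 at 4 h and 7.75, 7.59 and 7.53 at 14 h. Its rise was 1.86 ± 0.15 in B cells (SE; 3.64-fold, adjusted p = 2.97e-08) and 0.67 and 0.58 in T cells. Prpf3, its partner on U4/U6, rose by 1.16 in B cells and by 0.66 and 0.56 in T cells. Prpf40b, a U1-associated protein with an E-box in its promoter, read 6.54, 5.98 and 6.12 with LPS against 4.75, 4.66 and 4.48 at 0 h, a rise of 1.59 ± 0.15 (SE; adjusted p = 2.3e-07) over a 0 h mean of 4.63, below the level of 5, and rose by 0.63 and 0.75 in T cells. Prpf19, the ubiquitin ligase of the complex named after it, rose by 0.99 in B cells and by 0.62 and 0.38 in T cells. Prpf38a, which joins before activation of the spliceosome, rose by 0.90, 0.69 ± 0.11 and 1.08 ± 0.11, although a second Prpf38a probe set was lower by -1.44 in B cells. Prpf8, the scaffold at the catalytic centre, and Prpf6, a tri-snRNP bridge, differed by -0.02 and -0.11 in B cells and were not called in any comparison with 0 h.

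Prpf4b, a kinase that acts on tri-snRNP proteins, fell in all 3 comparisons on its brightest probe set. It read 11.27, 11.22 and 10.93 with LPS against 11.48, 11.56 and 11.43 in B cells at 0 h. In T cells Prpf4b read 12.18, 12.14 and 12.15 at 0 h, 11.99, 11.66 and 11.81 at 4 h and 11.11, 11.35 and 11.24 at 14 h. It fell by 0.35 ± 0.10 in B cells (SE; adjusted p = 0.00587), by 0.34 ± 0.10 in T cells at 4 h (adjusted p = 0.0101; -0.26 and not called without T ConA 4 h replicate 2) and by 0.92 ± 0.10 at 14 h (adjusted p = 2.32e-06). A second Prpf4b probe set was higher by 0.50 in B cells and, at 4 h, by 0.30 in T cells. With the mean over the probe sets the Prpf4b difference was not called in any of the 3 comparisons, at 0.03 in B cells and at -0.07 (adjusted p = 0.653) and -0.25 (adjusted p = 0.11) in T cells at 4 h and 14 h. Prpf38b fell by 0.50 ± 0.11 in B cells, but was not called with the mean over its probe sets (-0.17, adjusted p = 0.207). Prpf39, a U1-associated protein, fell in T cells by 0.45 ± 0.13 at 4 h (-0.29, still called, without T ConA 4 h replicate 1) and 0.62 ± 0.13 at 14 h. Neither Prpf39 call held with the mean over its probe sets, at -0.48 (adjusted p = 0.0549) and -0.41 (adjusted p = 0.0884).

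Of the SR proteins, 5 of 9 (55.6%) were higher in each comparison with 0 h. Of all genes, 37.6% were higher with LPS, and 33.4% and 36.6% with ConA at 4 h and 14 h. No SR protein was lower in B cells, and in T cells 0 were lower at 4 h and 2 at 14 h (4 without the 2 arrays with high spike-in ratios). Srsf2 (SC35), which binds exonic enhancers, led the SR proteins in B cells. It read 12.64, 12.72 and 12.64 with LPS against 10.60, 10.72 and 10.61 in B cells at 0 h. In T cells Srsf2 read 11.55, 11.34 and 11.60 at 0 h, 11.88, 12.35 and 12.20 at 4 h and 12.04, 11.97 and 12.05 at 14 h. Srsf2 was higher by 2.02 ± 0.10 in B cells (SE; 4.06-fold, adjusted p = 2.88e-10) and by 0.64 ± 0.10 (adjusted p = 9.1e-05) and 0.52 ± 0.10 (adjusted p = 0.000524) in T cells. Its other probe sets gave 2.37, 0.72 and 2.93 in B cells. Srsf9 had the reverse order, with rises of 0.47 in B cells and 0.73 ± 0.07 and 0.93 ± 0.07 in T cells. Srsf3, a shuttling factor that also aids mRNA export, rose by 0.84 ± 0.06 in B cells and by 0.31 and 0.52 in T cells, but a second Srsf3 probe set was lower by -0.99 in B cells and, at 4 h, by -1.0 in T cells.

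Srsf5 read 12.68, 12.68 and 12.74 with LPS against 12.99, 12.96 and 13.05 in B cells at 0 h. In T cells Srsf5 read 12.37, 12.12 and 12.50 at 0 h, 11.49, 12.24 and 12.14 at 4 h and 11.66, 11.37 and 11.65 at 14 h. Only the 14 h difference in T cells was called, a fall of 0.77 ± 0.16 (SE; adjusted p = 0.000801). Srsf4 rose by 0.45 in B cells and was lower at 14 h in T cells by -0.21 ± 0.07 (SE; adjusted p = 0.0222), a call lost without T 0 h replicate 1 (-0.16) or T ConA 14 h replicate 1 (-0.18) or 2 (-0.20). Srsf1, the founding SR protein, differed by 0.13 in B cells, not called, and rose by 0.25 and 0.19 in T cells.

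The hnRNPs moved in both directions. In B cells 12 of 19 rose and 6 fell, in T cells 10 rose and 3 fell at 4 h, and 8 rose and 7 fell at 14 h. At 14 h these are 42.1% and 36.8% of the hnRNPs, close to the 36.6% and 31.9% of all genes. In B cells 63.2% rose and 31.6% fell, against 37.6% and 42.3% of all genes. In T cells at 4 h 52.6% rose and 15.8% fell, against 33.4% and 32.5% of all genes. Hnrnpab read 13.92, 13.91 and 13.80 with LPS against 12.77, 12.86 and 12.82 in B cells at 0 h, a rise of 1.06 ± 0.06 (SE; adjusted p = 1.7e-09), although a second Hnrnpab probe set was lower by -1.60. It rose by 0.37 and 0.26 in T cells. Rises between 0.60 and 0.71 in B cells were made by Hnrnpa0, Hnrnpc, Hnrnpm, Hnrnpu, Hnrnpd and Hnrnpa1, a set that holds the abundant nuclear hnRNPs A1 and C. In T cells the largest 4 h rise was that of Hnrnph2, a paralogue of the G-run binder hnRNP H, at 0.72 ± 0.07 (SE; adjusted p = 9.01e-07). Hnrnpk, which binds C-rich RNA, differed by 0.18 in B cells and 0.19 and -0.03 in T cells, the last not called.

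Hnrnph3, of the hnRNP H and F family, read 8.63, 8.62 and 8.60 with LPS against 10.15, 10.17 and 10.32 in B cells at 0 h. In T cells Hnrnph3 read 9.97, 9.98 and 10.01 at 0 h, 8.93, 9.05 and 9.08 at 4 h and 9.0, 8.86 and 8.97 at 14 h. It fell by 1.60 ± 0.07 in B cells (SE; adjusted p = 3.04e-11) and by 0.97 ± 0.07 (adjusted p = 1.99e-08) and 1.05 ± 0.07 (adjusted p = 1.02e-08) in T cells. Hnrnpul1 fell by 0.77 ± 0.07 in B cells and by 0.25 and 0.26 in T cells.

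Hnrnpl and Hnrnpll are paralogues known to repress the variable exons of Ptprc. Hnrnpl read 8.57, 8.76 and 8.72 with LPS against 9.68, 9.91 and 9.84 in B cells at 0 h. In T cells Hnrnpl read 11.31, 11.25 and 11.23 at 0 h, 10.82, 10.93 and 10.80 at 4 h and 11.40, 11.36 and 11.37 at 14 h. All B arrays lay below all T arrays. Hnrnpl fell by 1.13 ± 0.07 in B cells (SE; adjusted p = 4.21e-09) and by 0.41 ± 0.07 in T cells at 4 h (adjusted p = 0.000233), and differed by 0.12, not called, at 14 h.

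Hnrnpll read 3.36, 2.92 and 3.57 with LPS against 5.48, 5.25 and 4.45 in B cells at 0 h. In T cells Hnrnpll read 9.45, 9.46 and 9.43 at 0 h, 9.72, 9.53 and 9.68 at 4 h and 10, 9.91 and 10.04 at 14 h. The B arrays with LPS were close to the floor of 2.24, which limits how large a fall can be seen. Hnrnpll was lower by -1.78 ± 0.21 in B cells (SE; adjusted p = 2.71e-06), and a second Hnrnpll probe set gave -2.62. In T cells the SD over 3 arrays was 0.02 to 0.10, against 0.33 and 0.54 in B cells with LPS and at 0 h, and the fit pools them. Hnrnpll differed by 0.20 (adjusted p = 0.432) at 4 h in T cells, but was called with only the arrays compared in the fit (adjusted p = 0.0378). It was higher by 0.54 ± 0.21 at 14 h (SE; adjusted p = 0.0375). That call was lost without any single one of the T 0 h and T ConA 14 h arrays, at 0.53 to 0.54 without T 0 h replicate 1, 2 or 3 and at 0.53, 0.57 and 0.51 without T ConA 14 h replicate 1, 2 and 3.

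**Figure D3:**
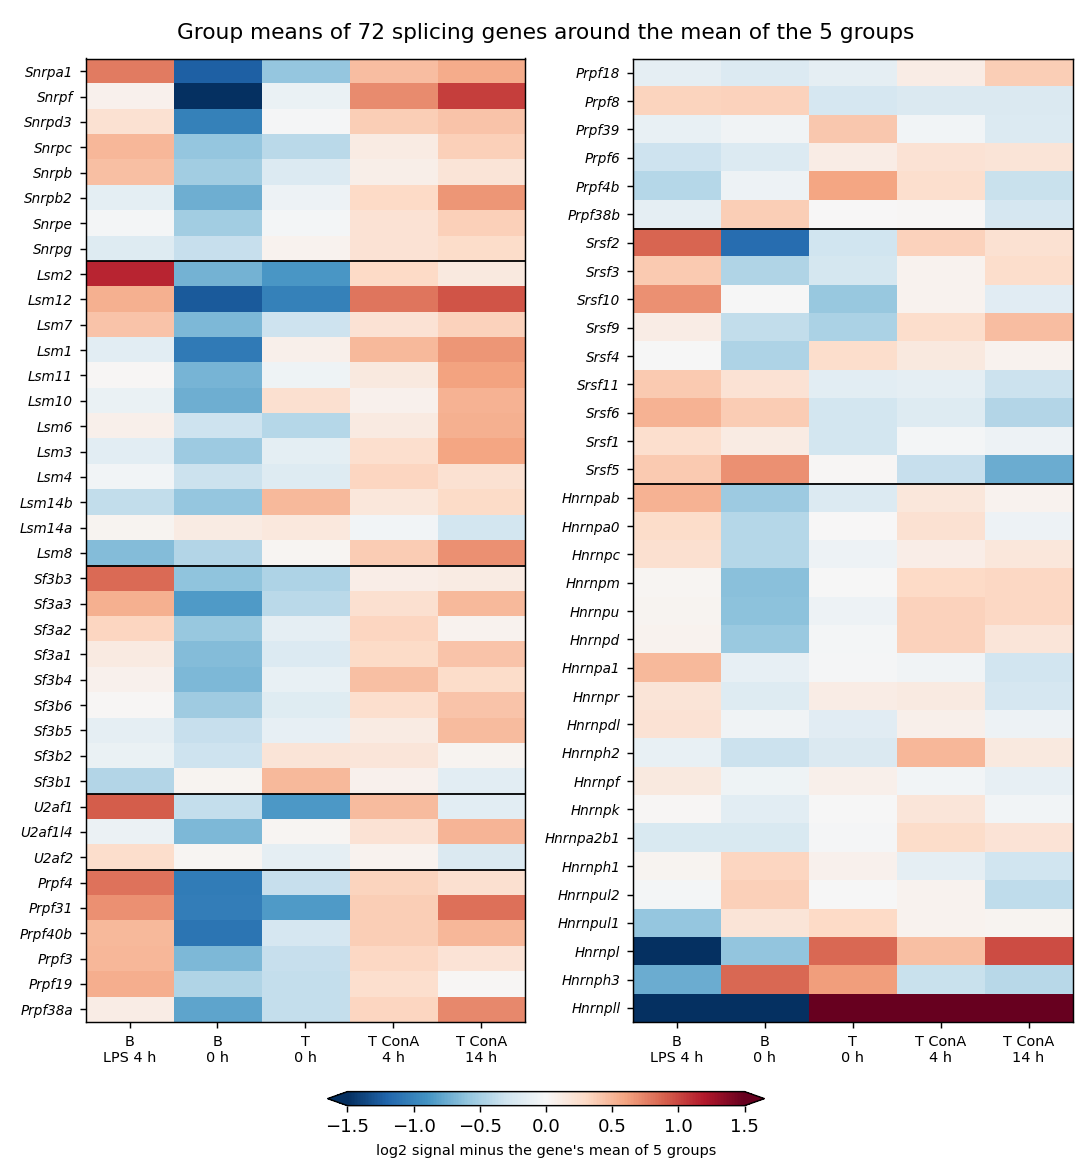
Mean log2 signal of each of the 72 tested splicing genes in each group (columns), minus the mean of the gene over its 5 group means, in log2 units (colour, red above and blue below), with genes in rows by role. Of the 72 genes, 43 have their lowest mean in B cells at 0 h, and 26 have their highest in B cells with LPS and 24 in T cells with ConA for 14 h.

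Resting B cells held the lowest group mean for 43 of the 72 splicing genes (59.7%, against 32.5% of all genes tested). The highest mean was in B cells with LPS for 26 genes (36.1%, against 21.1% of all genes tested) and in T cells at 14 h for 24 (33.3%, against 21.1%). These orders are descriptions. The array medians over the splicing genes were 11.14 to 11.23 in B cells with LPS against 10.64 to 10.67 in B cells at 0 h, and 10.78 to 10.84, 11.25 to 11.28 and 11.27 to 11.29 in T cells at 0, 4 and 14 h.

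Between 4 h and 14 h of ConA the splicing genes moved in both directions. At 14 h against 4 h, 16 were higher and 13 lower, where 48.9% of all genes tested were called, 27.4% higher and 21.5% lower, and the median splicing gene differed by -0.03. None of the 72 differed by 2-fold or more, a rise made by 4.16% and a fall made by 3.32% of all genes. With cyclic loess between arrays the split was 14 higher and 20 lower. Without the 2 arrays with high spike-in ratios it was 20 higher and 17 lower. Of the Lsm genes 5 were higher and 1 lower, and of the hnRNPs 1 was higher and 7 lower. The SR proteins had 2 higher and 0 lower, but 1 higher and 5 lower without those 2 arrays, and the Sm and snRNP proteins 2 higher and 0 lower, but 5 and 0 without them. The myeloid marker sum was 6.91 to 7.28 at 14 h against 10.62 to 11.08 at 4 h and the erythroid one 8.28 to 8.46 against 9.34 to 9.35. Xist also differed between these groups, and the part of these measures was not tested.

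Hnrnpl, with 11.40, 11.36 and 11.37 at 14 h against 10.82, 10.93 and 10.80 at 4 h, was the hnRNP that rose, by 0.53 ± 0.07 (SE; adjusted p = 5.63e-05). Hnrnpul2 read 9.79, 9.67 and 9.77 at 14 h against 10.21, 10.15 and 10.15 at 4 h, and fell by 0.43 ± 0.06 (SE; adjusted p = 6.42e-05). Hnrnpr read 11.78, 11.87 and 11.77 at 14 h against 12.11, 12.20 and 12.25 at 4 h, and fell by 0.39 ± 0.06 (SE; adjusted p = 0.000176). Neither of these 2 genes was called at 4 h against 0 h, and both were lower at 14 h than at 0 h, by -0.38 and -0.36. With the mean over its probe sets Hnrnpul2 was not called at 14 h against 0 h (-0.11, adjusted p = 0.356). U2af1 fell by 0.64 ± 0.08 (SE; adjusted p = 2.25e-05) and Prpf4b by 0.58 ± 0.10, while Prpf31 rose by 0.46 ± 0.08 (SE; adjusted p = 0.000339).

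The U7 proteins Lsm10 and Lsm11 were higher at 14 h than at 4 h by 0.46 ± 0.11 (SE; adjusted p = 0.00409 for Lsm10) and 0.45 ± 0.12. For Lsm10 the arrays read 8.35, 8.59 and 8.60 at 14 h against 8.28, 7.83 and 8.07 at 4 h. Snrpb2 was higher by 0.36 ± 0.09, Sf3b5 by 0.35 ± 0.07 and Sf3a3 by 0.25. Prpf38a was higher by 0.39 (0.25, still called, without T ConA 4 h replicate 1), while a second Prpf38a probe set was lower by -0.78. Lsm14a was lower by -0.24.

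Hnrnpll was higher by 0.34 at 14 h than at 4 h and not called (adjusted p = 0.207), but was called with only the arrays compared in the fit (adjusted p = 0.0113) and with the mean over its probe sets (0.46, adjusted p = 0.00348). A further 6 genes had 14 h against 4 h calls that rested on single arrays. Snrpf was higher by 0.33 ± 0.10 (SE; adjusted p = 0.0174), not called without T ConA 4 h replicate 2 (0.27) or 3 (0.31) or 14 h replicate 2 (0.25). Srsf3 was higher by 0.21, not called without 14 h replicate 2 (0.19), and Srsf9 by 0.20, not called without 4 h replicate 1 (0.14) or 14 h replicate 1 (0.21) or 3 (0.15). U2af1l4 was higher by 0.30 and not called without 4 h replicate 2 (0.27) or 3 (0.24) or 14 h replicate 1 (0.32), 2 (0.30) or 3 (0.28). U2af2 was lower by -0.27, not called without 4 h replicate 1 (-0.21) or 2 (-0.27) or 14 h replicate 2 (-0.22). Prpf38b was lower by -0.27, not called without 4 h replicate 2 (-0.21) or 3 (-0.20) or 14 h replicate 1 (-0.23), 2 (-0.30) or 3 (-0.29). None of these 6 calls held under every removal of a single array.

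At 0 h, B cells had lower signals than T cells for most splicing genes. Of the 72, 11 were higher and 43 lower in B cells, where 76.6% of all genes tested were called, 25.5% higher and 51.1% lower. The median splicing gene differed by -0.33, against -0.27 for all genes, so the shift of the splicing genes was close to that of the whole table. Cyclic loess between arrays moved the all-gene median by 0.14 and gave 15 higher and 32 lower, with the splicing genes' median at -0.01 relative to all genes. Setting the array medians equal moved the all-gene median by -0.11 and gave 9 higher and 53 lower, with a relative median of -0.06. Those array medians, over all probe sets, were 2.42 to 2.57 and close to the floor of 2.24. This setting therefore aligns dim probe sets and is a weak check of the scale of bright genes. With the mean over a gene's probe sets in place of the brightest, 21 were higher and 31 lower. Without T 0 h replicate 2 and T ConA 4 h replicate 1 the counts were 11 and 42. The erythroid marker sum was 13.61 to 13.68 in B cells against 12.65 to 12.70 in T cells. The 3′ excess of the dap spike-in RNA was 1.15 to 1.44 in B cells at 0 h and 2.45 to 4.59 in T cells at 0 h. Its part in this comparison was not tested.

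The largest difference between resting B and T cells was that of Hnrnpll, -4.39 ± 0.21 (SE; 20.9-fold, adjusted p = 2.06e-10), and its second probe set gave -3.35. Snrpf followed at -1.60 ± 0.10 (SE; adjusted p = 5.26e-09), Hnrnpl at -1.45 ± 0.07 (SE; adjusted p = 3.74e-10), Lsm1 at -1.14 ± 0.08 and Lsm14b at -1.07 ± 0.11. These were the 5 genes lower by at least 2-fold, a size reached by 20.3% of all genes. No splicing gene was higher in B cells by as much, where 12.2% of all genes were. Srsf5 was higher by 0.67 ± 0.16, Srsf6 by 0.66 ± 0.15, Prpf8 by 0.60 ± 0.08, Srsf10 by 0.56 ± 0.10 and U2af1 by 0.51 ± 0.08. SR proteins were the role with more genes higher than lower, 5 against 3. Lower in B cells were 7 of 8 Sm and snRNP proteins (87.5%), 8 of 9 SF3 subunits (88.9%) and 7 of 12 Lsm genes (58.3%). In these 3 roles 0 were higher, and 51.1% of all genes were lower, a share near that of the Lsm genes. In this comparison 12 genes, among them Srsf2, Srsf3, Snrpd3 and Sf3b1, had another probe set called in the opposite direction.

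The 4 h responses of B and T cells come from separate arrays and can be set side by side. Of the 72 splicing genes, 42 were higher in both (58.3%, against 24.2% of all genes tested) and 5 were lower in both (6.94%, against 24.3%). Lsm8 alone was called in opposite directions. Without the 2 arrays with high spike-in ratios, 40 were higher in both, 5 lower in both and 1 opposite. Across the 72 genes the responses had a Pearson correlation of 0.768, against 0.523 across all genes, given as a description since genes on the same arrays are not independent.

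The difference between the responses was tested as an interaction in the same fit. The B cell response to LPS exceeded the T cell response to ConA for 31 splicing genes and was below it for 11, where 66.1% of all genes were called, 31.3% above and 34.8% below. The responses differed by at least 2-fold for 2 genes above and 1 below, where 13.9% and 18.5% of all genes did so. The median difference between responses was 0.22 for the splicing genes and -0.03 for all genes. Without the 2 arrays with high spike-in ratios the counts were 32 and 11. By role, 6 of 8 Sm and snRNP proteins, 6 of 12 Lsm and 5 of 12 Prpf genes responded more in B cells, against 0, 2 and 1 that responded less, while the hnRNPs were divided at 8 and 7. The activators differ between the cell types, so cell type and activator cannot be told apart here.

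Srsf2 had the largest excess in B cells, 1.37 ± 0.15 (SE; 2.59-fold, adjusted p = 1.86e-06). Prpf4 followed at 1.19 ± 0.21 (SE; adjusted p = 0.000177), Snrpa1 at 0.97 ± 0.12 (SE; adjusted p = 9.75e-06) and Prpf40b at 0.96 ± 0.21 (SE; adjusted p = 0.00125). On the other side stood Hnrnpll at -1.98 ± 0.30 (SE; adjusted p = 5.29e-05), Hnrnpl at -0.71 ± 0.10 (SE; adjusted p = 3.84e-05), Hnrnph3 at -0.63 ± 0.09 (SE; adjusted p = 4.77e-05) and Lsm8 at -0.56 ± 0.12 (SE; adjusted p = 0.000793). Hnrnph2, the X-linked gene, responded less in B cells, by -0.51. The Lsm8 value was -0.10 (adjusted p = 0.535) with the mean over its probe sets.

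**Figure D4:**
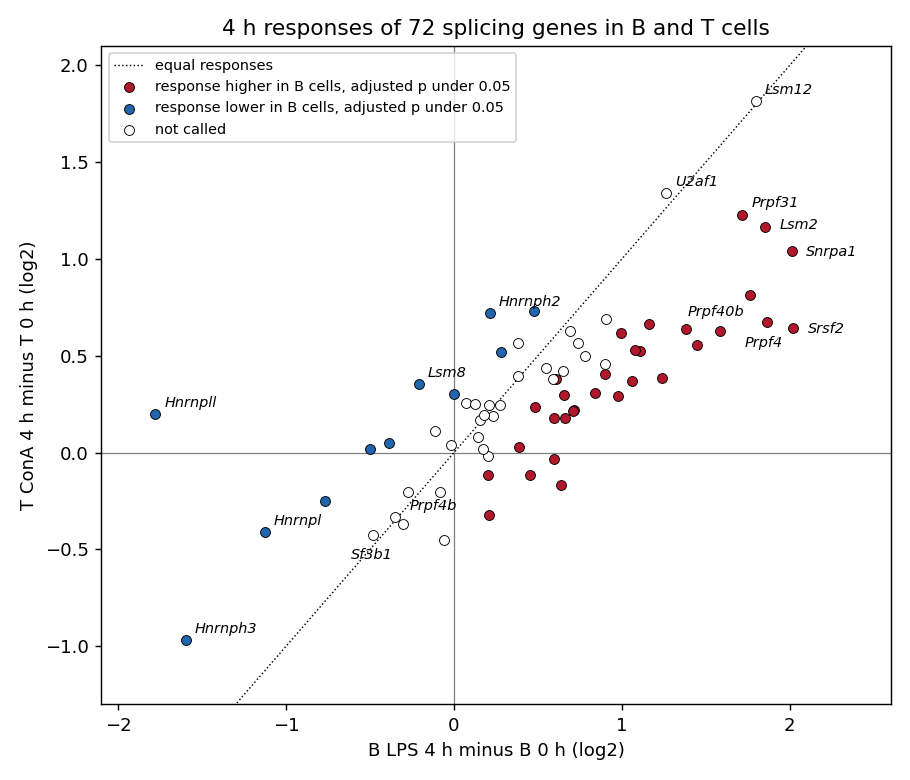
Log2 difference of B cells with LPS for 4 h from B cells at 0 h (x axis) against that of T cells with ConA for 4 h from T cells at 0 h (y axis) for the 72 tested splicing genes. Each point is a gene, red where the B cell response was higher (31 genes) and blue where it was lower (11 genes) at an adjusted p under 0.05, and the dotted line marks equal responses; Srsf2 lies farthest to the right at 2.02 and 0.64.

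The wider splicing pathway was described with 5 further gene lists, whose counts are read against all genes tested: 37.6% higher and 42.3% lower with LPS, 33.4% and 32.5% with ConA at 4 h, and 36.6% and 31.9% at 14 h. Genes that assemble snRNPs, the SMN complex and the methylosome that methylates Sm proteins, rose in B cells in 8 of 10 cases and fell in 0. In T cells 6 rose at 4 h and 8 at 14 h, with none lower, and the medians were 1.15, 0.54 and 0.91 in the 3 comparisons. Gemin5, which recognises small nuclear RNAs for the SMN complex, rose by 3.88 in B cells and by 1.10 and 1.13 in T cells at 4 h and 14 h. Smn1, the core of that complex, rose by 2.01, 1.27 and 1.57, and the methyltransferase Prmt5 by 2.63, 0.70 and 1.26. The snRNP assembly genes and the Sm proteins they load thus rose in the same comparisons.

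Other spliceosome genes rose in 32 of 46 cases and fell in 5 in B cells, and in T cells 24 rose and 3 fell at 4 h and 30 rose and 8 fell at 14 h. Rbm17 rose by 2.12, 0.71 and 0.72 over the 3 comparisons, and Snrnp35, of the minor U11/U12 snRNP, by 1.92, 1.51 and 1.13. The helicase gene Dhx16 was lower by -0.31, -0.67 and -0.66. Of 19 genes of the exon junction complex and SR-related proteins, 13 were higher and 6 lower in B cells (68.4% and 31.6%). In T cells 7 and 6 were so at 4 h, 36.8% and 31.6%, close to the shares of all genes, and 6 and 9 at 14 h. Rbm8a, a core subunit of that complex, rose by 1.56, 0.74 and 0.87, and Pnn was lower by -0.69, -0.97 and -0.90.

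The kinases that phosphorylate SR proteins went the other way. Of 7, 1 rose and 6 fell in B cells, 6 fell in T cells at 4 h and all 7 fell at 14 h (85.7%, 85.7% and 100% lower, against 42.3%, 32.5% and 31.9% of all genes), with medians of -0.79, -0.47 and -0.49. Clk4 was lower by -1.25, -0.56 and -0.89, and Srpk2 by -1.16, -0.47 and -0.80. Srpk1 was the exception, higher by 1.25 in B cells and lower by -0.50 and -0.49 in T cells. Clk1 was lower by -1.61 in B cells and, at 14 h, by -0.45 in T cells, and differed by -0.26, not called, at 4 h. Among 27 other splicing regulators 8 rose and 12 fell in B cells (29.6% and 44.4%, against 37.6% and 42.3% of all genes), with Rbmx lower by -1.96, -1.17 and -1.45, Celf2 lower by -1.51, -1.24 and -1.31, and Sfpq higher by 1.12, 0.83 and 0.86.

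Probe sets of the same gene did not always move together. Of the 74 genes 49 had more than 1 probe set, and 103 other probe sets of 45 genes were bright enough to test. Where both the brightest and another probe set were called in B cells with LPS, 54 had the same direction and 6 the opposite, in Hnrnpab, Hnrnpdl, Lsm8, Prpf38a, Prpf4b and Srsf3. In T cells at 4 h 40 had the same direction and 5 the opposite, and at 14 h 44 and 3. Between resting B and T cells 30 had the same direction and 21, in 12 genes, the opposite. Which probe set stands for the gene was not tested.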

How the data were processed

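RNA from spleen B and T cells was measured on 15 arrays in 5 groups of 3, and for each sample 100 ng of total RNA was labelled, per the labels' protocols. The deposited values are log2 signals that the authors made with GCRMA, per the submitters' processing notes, with a version not given in the sources used here. They run from a floor of 2.24 to 15.9 for 45101 probe sets, and array medians lay between 2.42 and 2.57. The number of arrays limits the precision.

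Gene names came from the annotation of the platform. The 932 listed with several genes and the 9211 with none were left out, and the brightest probe set was taken for each gene. The 9045 genes with a highest group mean of at least 5 were tested in one group-means model with limma 3.58.1 in R 4.3.3, with p-values adjusted by the Benjamini-Hochberg method over all genes of a comparison. Residual degrees of freedom were 10, and those of the prior were 3.16. The fit was tested on simulated data. Promoter windows are those of RefSeq.

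The members, gene lists and tests were chosen with earlier results of these data known. The rule for named genes took, per role, the 2 largest called rises and falls in each comparison of times or treatments (the brightest member too where fewer than 2 were called), the 5 largest each way between cell types at 0 h, the 4 largest each way in the interaction with any member called in opposite directions, and Hnrnpll. Other genes were named after their values were seen.

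Alternatives were other normalizations, level filters, probe set choices, variance priors, fewer arrays and the replicate number as a block. Same-numbered samples did not deviate together across groups, so the numbers were not taken as pairs.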

Additional observations from a re-analysis of the deposited data

Results flagged for a closer look

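At an adjusted p under 0.05 in the limma interaction test, 66.1% of all genes differed between the B and T cell 4 h responses. They split into 31.3% with a higher and 34.8% with a lower response in B cells. Of the 72 splicing genes 58.3% showed such a difference, 31 with a higher and 11 with a lower response in B cells. The genes singled out by the size of this difference were Srsf2 (1.37), Prpf4 (1.19), Snrpa1 (0.97) and Prpf40b (0.96) on the higher side, and Hnrnpll (-1.98), Hnrnpl (-0.71), Hnrnph3 (-0.63) and Lsm8 (-0.56) on the lower side, all on the log2 scale. Srsf2, Prpf4, Snrpa1 and Prpf40b rose in both cell types and more in B cells. Hnrnpl and Hnrnph3 fell in both and more in B cells. Hnrnpll was lower in B cells, at group means of 3.28 with LPS and 5.06 at 0 h above a floor of 2.24. It was not called in T cells, although it was called higher there (0.20, adjusted p = 0.0378) with only the arrays compared in the fit. Lsm8 was lower in B cells and higher in T cells, but its B cell call was lost without some single arrays. With the mean over its probe sets Lsm8 was higher in B cells by 0.50, and its interaction was -0.10 (adjusted p = 0.535). Xist was low in both 4 h groups and high in both 0 h groups, and its part in these differences was not tested.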

How the results depend on the processing

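The numbers of splicing genes called stayed within 1.5 times of those reported under nearly all alternatives. The exceptions were the lower count at 14 h against 4 h of ConA, 20 with cyclic loess, and the higher count in B against T cells at 0 h, 21 with the mean over a gene's probe sets. Medians moved more. For LPS in B cells the median was 0.56 with array medians set equal, 0.42 with cyclic loess and 0.48 to 0.53 without single replicates. With cyclic loess it was 0.21 for ConA at 4 h and 0.22 at 14 h. For 14 h against 4 h it was 0.0223 with the probe-set mean and 0.0199 without probe sets ending in _x_at. For B against T cells at 0 h it was -0.44 with array medians set equal, -0.15 with cyclic loess and -0.14 with the probe-set mean. Without single replicates the higher counts ran over 48 to 50 (LPS), 42 to 45 (ConA 4 h), 44 to 45 (14 h), 12 to 20 (14 h against 4 h), 10 to 11 (B against T at 0 h) and 28 to 35 (interaction), and the lower counts over 9 to 10, 7 to 9, 11 to 13, 9 to 17, 39 to 46 and 9 to 11. With the replicate block the counts were 49 and 10, 45 and 8, 46 and 13, 16 and 12, 11 and 43, and 29 and 9, and of the named calls only Prpf38b at 14 h against 4 h was lost (-0.27, adjusted p = 0.0636). Same-numbered samples correlated between groups at -0.457 to 0.236. Of 101 named values, 74 kept direction and call under every alternative. The sign turned for 4, all with the probe-set mean, namely Lsm8 (0.50) and Prpf4b (0.0332) for LPS, and Lsm14a (0.0711) and Prpf38a (-0.13) for 14 h against 4 h. The cause of these shifts was not tested. Signals close to the floor, as for Hnrnpll in B cells, limit what could be measured.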
